A study of Mus musculus with 15 samples.

Results

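The nuclear receptors other than Pparg and Esrra, together with their main coregulators, were described as 1 family of 36 genes: 30 receptors, the corepressors Ncor1 and Nrip1, and the coactivators Ncoa1, Ncoa2, Ncoa3 and Med1. They were taken by name and matched to the Ensembl identifiers of the count files, which hold 25700 identifiers. All 36 were found, 34 had at least 1 count, and 30 had enough counts to be tested. The 6 untested genes were Ppara, Rarb, Nr4a3, Esr1, Nr5a2 and Nr0b2.

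RNA was sequenced from mouse 3T3-L1 cells, a fibroblast-like line that turns into adipocytes under hormone treatment. The study asked how the transcriptome changes during this conversion and when MIGA2, a mitochondrial outer membrane protein that links mitochondria to other organelles, is removed or overexpressed. There were 5 groups of 3 libraries. These were WT cells at day 0 and day 6, cells depleted of MIGA2 (MIGA2-KO) at day 0 and day 6, and cells overexpressing MIGA2-GFP at day 6. Day 0 was the moment when cells that had stayed confluent for 48 h received the differentiation medium. All day 6 groups had received dexamethasone (1 µM), the phosphodiesterase inhibitor IBMX (0.5 mM) and insulin (1 µg/mL) at the start. They were moved to insulin alone after 2 days and to plain serum medium at day 4. Dexamethasone is itself a ligand of the glucocorticoid receptor, IBMX raises cAMP, and the WT cells received both too. The labels do not give the number of clones behind MIGA2-KO or MIGA2-GFP, the promoter of the GFP construct, or whether replicates are separate cultures. The p-values therefore measure only the spread between these samples, which may be technical.

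Nuclear receptors are transcription factors whose activity is set by small lipophilic ligands such as fatty acids, oxysterols, retinoids, thyroid hormone and steroids. Many bind DNA as a pair with a retinoid X receptor (RXR), and without ligand several of them hold corepressors such as NCOR1. Ligand exchanges these for coactivators of the p160 family (NCOA1, NCOA2 and NCOA3) and the Mediator subunit MED1. In fat cells PPARγ with RXRα drives the adipocyte programme, the liver X receptors (LXRs) sense oxysterols and control lipid synthesis and cholesterol export, and the glucocorticoid receptor starts the process in culture.

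Many of these receptors, though not all, recognise variants of the half-site AGGTCA. The 250 bases before each RefSeq start (GRCm38.p6) were therefore searched for it on both strands. Of 47 windows for 32 members, 7 held it (14.9%), against 14% of all 32851 windows. No member window held AGGTCA repeated with 1, 2 or 4 bases between the copies. The stretches around the matches are shown for the 6 tested members that have one, to set the sequence beside the values given for these receptors. Several receptors with larger changes than some of these are not among them. Capitals mark AGGTCA or its reverse complement TGACCT, each stretch reads 5′ to 3′ on the gene's strand, and none overlaps an annotated exon.
Thrb, chr14:17660746-17660811 (+): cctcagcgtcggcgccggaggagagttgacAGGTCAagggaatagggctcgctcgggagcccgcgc
Rxra, chr2:27709175-27709279 (+): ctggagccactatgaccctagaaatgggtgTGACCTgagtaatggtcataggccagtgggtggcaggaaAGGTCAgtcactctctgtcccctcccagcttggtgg
Rxrg, chr1:167618147-167618212 (+): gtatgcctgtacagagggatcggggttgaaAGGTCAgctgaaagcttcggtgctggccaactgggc
Rarg, chr15:102257712-102257772 (-): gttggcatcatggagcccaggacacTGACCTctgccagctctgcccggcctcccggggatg
Nr1d2, chr14:18239148-18239213 (-): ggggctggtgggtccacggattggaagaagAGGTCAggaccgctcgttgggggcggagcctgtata
Nr6a1, chr2:38784525-38784636 (-): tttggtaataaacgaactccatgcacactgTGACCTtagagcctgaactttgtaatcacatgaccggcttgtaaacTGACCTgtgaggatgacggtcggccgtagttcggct
A match is a description of these letters only.

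Libraries held 10748668 to 26003871 counts, and WT day 0 was the deepest group. Miga2, counted as a check of the labels, was at 926 CPM (normalised counts, scaled to the size of each library) in the library labelled MIGA2-KO day 6 replicate 1 and at 74.5 and 70.0 CPM in the other two of that group, against 145 to 182 CPM in WT at day 6. That library goes against its label, so some results that use it are also given without it. The other MIGA2-KO day 6 results are given only with it. At day 0 Miga2 was at 17.2 to 22.6 CPM in libraries labelled MIGA2-KO and 13.6 to 17.8 CPM in WT, and MIGA2-GFP at 155 to 166 CPM did not exceed WT at day 6. The MIGA2-KO and MIGA2-GFP groups are therefore named by their labels only. Marker lists of other lineages were low but not all at 0. Summed over each list, macrophage, epithelial and endothelial markers stayed below 10 CPM in every library, with Ptprc, Epcam and Cdh1 at 0. Osteoblast markers were at 10.4 to 36.6 CPM. Chondrocyte markers, with Acan at 0, were at 45.5 to 65.3 CPM in MIGA2-KO and 17.1 to 21.5 CPM in WT at day 6. At day 0 their sum was 34.9 to 43.3 CPM in MIGA2-KO and 46.1 to 53.2 CPM in WT. Skeletal muscle markers, with Myod1 at 0, stayed at or below 1.36 CPM except in MIGA2-KO at day 6, where replicate 3 held Acta1 at 22.6 and Ckm at 16.2 CPM. The part of these cells in the results was not tested. In WT, most members with long transcripts were low in day 0 replicate 1 and high in day 6 replicate 1, and most with short GC-rich ones were the reverse. The highest library was more than 1.5-fold above the lowest for 16 of 29 members in WT day 0 and for 15 of 30 in WT day 6, against 3 of 29 in MIGA2-KO day 0, 7 of 30 in MIGA2-KO day 6 and 1 of 30 in MIGA2-GFP.

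Differentiation of WT cells changed 22 of the 30 tested members, 14 upward and 8 downward, at an adjusted p under 0.05 (edgeR quasi-likelihood test, Benjamini-Hochberg over 12279 genes). Of all genes tested 64.8% passed, 31.7% higher and 33.1% lower. At least 1.5-fold changes were seen in 16 members, beside 52.6% of all genes. The members' median log2 fold change was 0.35, beside -0.04 over all genes tested. In libraries labelled MIGA2-KO 11 members passed, 10 higher and 1 lower, beside 44.3% of all genes (23.3% higher and 21% lower), with a member median of 0.15 and a median of 0.02 over all genes. The interaction, MIGA2-KO minus WT, passed for 9 members, 5 higher and 4 lower in MIGA2-KO, beside 27.2% of all genes. It was at least 1.5-fold for 8 of them, beside 24.2% of all genes. With upper-quartile scaling the split was 7 higher and 1 lower. With the library labelled MIGA2-KO day 6 replicate 1 left out, the count over time in MIGA2-KO was 10 and that of the interaction 9. The shares of all genes called in these refits are not given here.

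Bulk RNA cannot tell fewer cells of a type from less RNA per cell, and the summed CPM of 7 adipocyte markers moved with these results. At day 0 the sum was 681 to 803 for WT and 1140 to 1170 for MIGA2-KO. At day 6 WT reached 36800 to 45000, MIGA2-KO 8760 to 13300 and MIGA2-GFP 22900 to 24200.

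**Figure D1:**
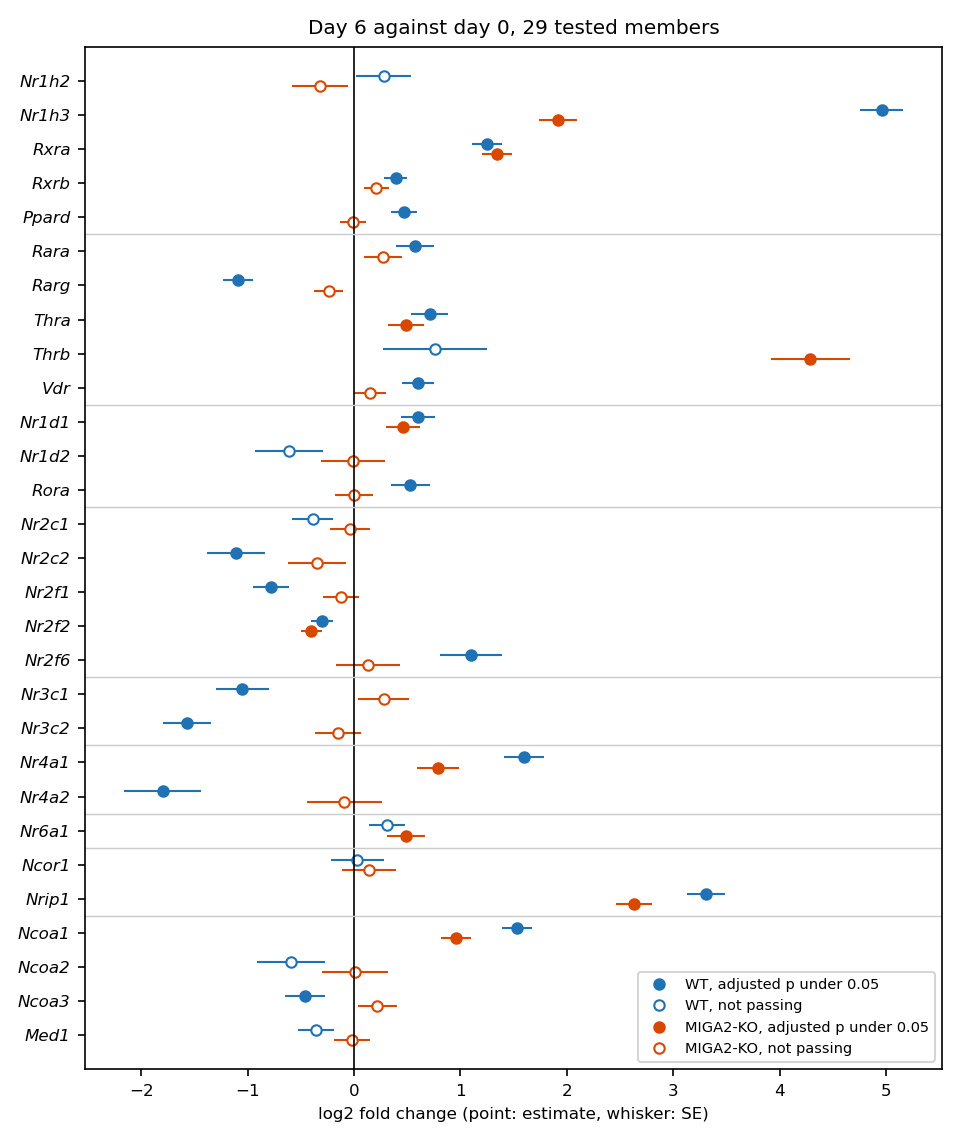
Log2 fold change from day 0 to day 6 (horizontal axis) of 29 tested members (rows, separated by role) in WT (blue) and MIGA2-KO (orange), with SE as whiskers and filled points for an adjusted p under 0.05. Nr1h3 stands at 4.96 in WT and 1.92 in MIGA2-KO, Thrb at 0.76 and 4.29, and Rxrg is left out because it had no count at day 0.

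Nr1h3, which encodes the oxysterol receptor LXRα, showed the largest rise in WT among the members with counts at day 0. In WT it was at 5.42, 4.57 and 4.47 CPM at day 0 and at 111, 158 and 183 CPM at day 6. In MIGA2-KO it was at 11.5, 13.2 and 10.5 CPM at day 0 and at 53.6, 42.1 and 37.6 CPM at day 6. The 4 groups did not overlap along either axis: MIGA2-KO lay above WT before differentiation and below it after. The log2 change was 4.96 ± 0.20 (± SE throughout) in WT and 1.92 ± 0.18 in MIGA2-KO, and the difference of -3.04 ± 0.25 passed at an edgeR adjusted p of 1.51e-06. At day 0 MIGA2-KO was 2.43-fold higher and at day 6 3.38-fold lower, with edgeR adjusted p of 0.000223 and 1.29e-06. With the library labelled MIGA2-KO day 6 replicate 1 left out, the Nr1h3 difference at day 6 was -1.91 on the log2 scale.

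Nr1h2, the widely expressed LXRβ, passed no comparison in the reported fit and ranged from 29.5 to 70.5 CPM over all libraries. Its log2 change in WT, 0.28 ± 0.26, ranged from -0.05 to 0.81 over 14 alternatives. It passed in 2 of them, each without WT day 6 replicate 1. The make-up of the LXR pair moved mainly with Nr1h3. Per kilobase of exon, Nr1h3 gave 13.5% ± 2.94 of the pair in WT at day 0 and 79.8% ± 2.80 at day 6 (SD, n = 3). In MIGA2-KO the share was 24.0% ± 2.55 and 59.7% ± 7.29, and in MIGA2-GFP 71.2% ± 0.502. Of the 8 tested genes of a list of LXR targets, 6 rose and 2 fell in WT, and 7 rose and 1 fell in MIGA2-KO, all 8 in each line beside 64.8% and 44.3% of all genes. Abcg1, a sterol exporter, rose by 4.15 ± 0.15 on the log2 scale in WT and by 2.54 ± 0.14 in MIGA2-KO. Lpcat3, which remodels phospholipids, was at 529 to 631 CPM in WT and 149 to 222 CPM in MIGA2-KO at day 6, a log2 difference of -1.74 ± 0.13 (edgeR adjusted p = 1.22e-07). Scd1, the main fatty acid desaturase, had a log2 difference of -2.11 ± 0.43 there, with 10780 CPM in the library labelled MIGA2-KO replicate 1 and 2345 and 2369 CPM in the others. It was -3.24 with that library left out. At day 6 in all, 3 of the 8 LXR targets were lower and 1 was higher in MIGA2-KO than in WT, 50% beside 60.7% of all genes.

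Rxra, the partner of PPARγ and of the LXRs, was the most abundant member per kilobase in every group except WT at day 0, where Thra was. It rose in both lines, from 149, 179 and 167 CPM to 376, 370 and 429 CPM in WT and from 244, 240 and 258 CPM to 461, 736 and 684 CPM in MIGA2-KO. MIGA2-KO exceeded WT at both days without overlap, by 1.5-fold at day 0 and 1.60-fold at day 6 (edgeR adjusted p = 0.00626 and 0.000884), and the change over time did not differ at the threshold (0.09 ± 0.20 on the log2 scale, adjusted p = 0.772). The library labelled MIGA2-KO day 6 replicate 1 was the lowest of its group, and the day 6 difference was 0.87 on the log2 scale with it left out. Rxrb stayed between 44.2 and 78.1 CPM in every library. Its day 6 difference of -0.31 on the log2 scale (adjusted p = 0.0321) did not pass in 9 of 14 alternatives, and was -0.05 with offsets for GC content and length. Among single libraries it did not pass with WT replicate 2 (-0.32, 0.0566) or 3 (-0.17, 0.214), or MIGA2-KO replicate 2 (-0.29, 0.0925) or 3 (-0.28, 0.0986), left out. Rxrg, the isoform best known from muscle and nerve, had no count in the 6 day 0 libraries. At day 6 it had 45 counts over the 3 WT libraries and 27 over those of MIGA2-KO, so it was at least 35.5-fold and at least 9.71-fold higher than a floor of 3 counts over the day 0 group. It reached no more than 0.940% of the RXR family in any library.

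Among the PPARs, Ppard, a receptor for fatty acids found in most tissues, was at 63.3, 68.5 and 82.2 CPM in WT and at 38.7, 44.6 and 36.1 CPM in MIGA2-KO at day 6. The groups did not overlap and differed by -0.84 ± 0.12 on the log2 scale (edgeR adjusted p = 4.34e-05). Ppara, the liver form, had 26 counts in 15 libraries. Pparg, which is not among the members, made up 41.8% ± 3.76 of the PPAR family per kilobase in WT at day 0 and 91.3% ± 1.08 at day 6. It was at 294 to 296 CPM in WT and 154 to 162 CPM in MIGA2-KO at day 6. Of 10 tested targets of PPARα and PPARδ, 8 were lower and 1 was higher in MIGA2-KO than in WT at day 6, 90% beside 60.7% of all genes. The carnitine carrier gene Slc25a20 differed by -1.53 ± 0.12 on the log2 scale (edgeR adjusted p = 2.3e-07).

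**Figure D2:**
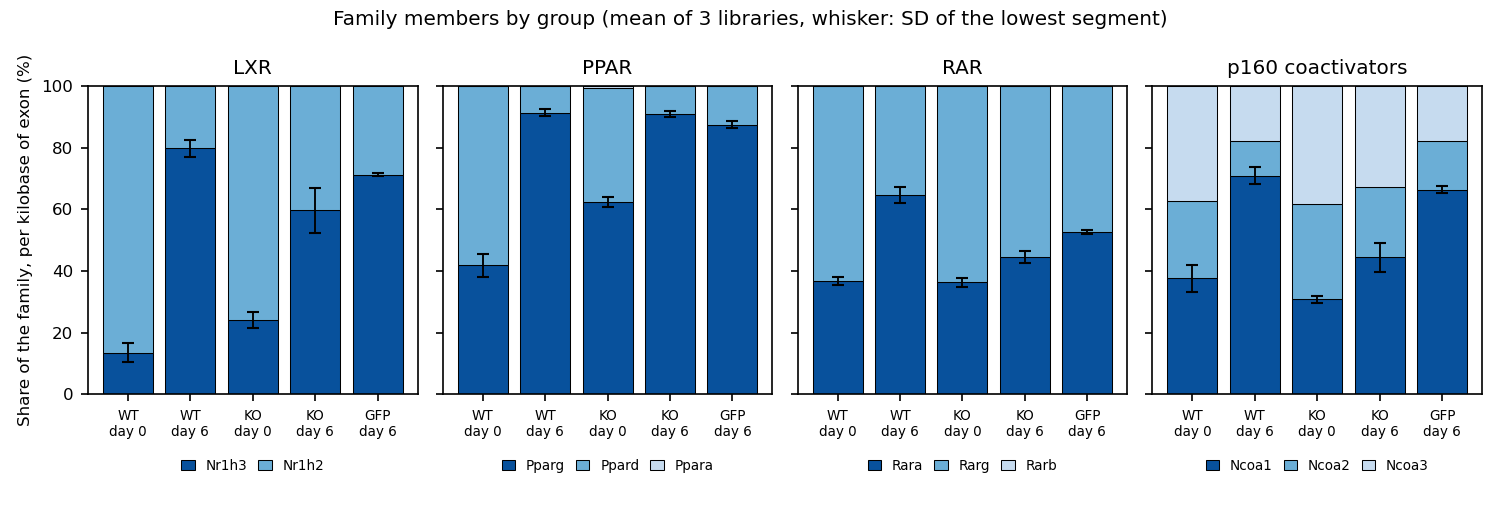
Share of each receptor or coactivator family (vertical axis, percent of the family's CPM per kilobase of exon) held by each member in the 5 groups (bars, mean of 3 libraries, with the SD of the lowest segment). Nr1h3 goes from 13.5% to 79.8% of the LXR pair in WT, and Ncoa1 from 37.6% to 70.9% of the p160 family, with 44.4% in MIGA2-KO at day 6.

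The retinoic acid receptors exchanged places in WT. Rarg was at 115, 121 and 92.4 CPM at day 0 and at 41.8, 57.7 and 54.7 CPM at day 6, a fall of 2.13-fold with no overlap (edgeR adjusted p = 1.04e-05). In MIGA2-KO the values were 106, 114 and 110 CPM and then 76.6, 107 and 95.6 CPM, which overlapped. The change over time differed by 0.85 ± 0.20 on the log2 scale (adjusted p = 0.00645), and at day 6 MIGA2-KO was 1.81-fold above WT (adjusted p = 0.000174). Rara had a log2 change of 0.57 ± 0.18 in WT (adjusted p = 0.0119), which did not pass with replicate 3 of either WT day left out (0.42 in both cases, adjusted p = 0.0616 for day 0 and 0.0706 for day 6). Per kilobase, Rara went from 36.7% ± 1.31 to 64.7% ± 2.63 of the RAR family in WT, and from 36.3% ± 1.38 to 44.5% ± 1.99 in MIGA2-KO. MIGA2-GFP lay between at 52.7% ± 0.708. Rarb, whose exons overlap those of Top2b on the other strand over 34.1% of their length, had 36 counts in all.

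Of 7 tested retinoid target genes, 2 rose and 2 fell in WT, 57.1% beside 64.8% of all genes. Dhrs3, which turns retinaldehyde back to retinol, rose by 3.4 ± 0.19 on the log2 scale in WT and by 1.14 ± 0.19 in MIGA2-KO, and was 155 to 228 CPM against 30.5 to 41.4 CPM at day 6. Cyp26b1, which degrades retinoic acid, was 1.55 ± 0.19 higher in MIGA2-KO at day 0 and fell by 1.51 ± 0.20 there during differentiation.

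Thrb, the β form of the thyroid hormone receptor, was seen at more than 1 CPM only in MIGA2-KO at day 6, where it was at 5.39, 8.32 and 8.53 CPM. The other 12 libraries lay between 0.0943 and 0.857 CPM. The 3 libraries thus stood clear of all the rest, including the MIGA2-GFP libraries at 0.683, 0.763 and 0.857 CPM. Thrb rose by 4.29 ± 0.37 on the log2 scale in MIGA2-KO (19.6-fold, edgeR adjusted p = 2.52e-07) and had a change of 0.76 ± 0.49 in WT (adjusted p = 0.19). The difference was 3.53 ± 0.64 (adjusted p = 0.000946), and at day 6 MIGA2-KO exceeded WT 15.4-fold (adjusted p = 7.99e-07). The library labelled MIGA2-KO day 6 replicate 1 was the lowest of the 3, and the difference from WT was 4.14 on the log2 scale with it left out.

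Even at its highest Thrb was a small part of the pair. Per kilobase it made up 2.66% ± 0.163 of the thyroid hormone receptor RNA in MIGA2-KO at day 6, against 0.113% to 0.240% on average in the other groups. Thra, the α form, was the most abundant member per kilobase in WT at day 0, with 33.4 ± 4.75 CPM per kilobase, and rose by 0.71 ± 0.17 on the log2 scale in WT (adjusted p = 0.00191). Its last exons overlap those of Nr1d1 on the other strand over 263 bases, 5.70% of its exon length, and no source used here states whether counting kept the strands apart. At day 6 Thra had a log2 difference of -0.58 ± 0.17 from WT in MIGA2-KO (adjusted p = 0.00852), which did not pass with WT day 6 replicate 3 left out (-0.38, 0.0654) or with offsets for GC content and length (-0.22, 0.0652). Of 4 tested thyroid hormone target genes, 3 were lower and 1 higher in MIGA2-KO than in WT at day 6, beside 60.7% of all genes. The lipogenic regulator Thrsp was at 752 to 1231 CPM in WT and 18.1 to 73.7 CPM in MIGA2-KO, the highest being the library labelled replicate 1 (log2 difference -4.78 with it and -5.69 without). Klf9, also a target of the glucocorticoid receptor, was higher there by 1.36 ± 0.38 (edgeR adjusted p = 0.00619).

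Vdr, the vitamin D receptor, was at 26.3, 33.8 and 33.7 CPM in WT at day 0 and at 60.5, 61.3 and 61.2 CPM in MIGA2-KO, 1.95-fold higher with no overlap (edgeR adjusted p = 0.000305). It rose in WT by 0.60 ± 0.15 on the log2 scale (adjusted p = 0.00241) and changed by 0.15 ± 0.15 in MIGA2-KO (adjusted p = 0.428). The difference over time of -0.45 ± 0.21 did not pass (adjusted p = 0.123). At day 6 MIGA2-KO was higher than WT by 0.51 ± 0.15 (adjusted p = 0.0082), with overlapping groups. Of 2 tested vitamin D target genes, Spp1, which encodes osteopontin, fell in both lines, by 4.5 ± 0.58 in WT and 3.95 ± 0.57 in MIGA2-KO. In the library labelled MIGA2-KO day 6 replicate 1 it was at 76.1 CPM against 9.89 and 10.7 CPM in the others, and the change was -5.59 with that library left out.

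The steroid receptors fell in WT and were not called in MIGA2-KO. Nr3c1, the glucocorticoid receptor, was at 68.4, 134 and 154 CPM in WT at day 0 and at 80.9, 43.9 and 47.3 CPM at day 6. In MIGA2-KO it was at 130, 136 and 133 CPM and then at 157, 158 and 167 CPM. The WT groups overlapped, because day 0 replicate 1 was low and day 6 replicate 1 high, and the MIGA2-KO libraries at day 6 were above every WT library of either day. The fall in WT was 2.07-fold (edgeR adjusted p = 0.0019), the change in MIGA2-KO 0.28 ± 0.24 on the log2 scale (adjusted p = 0.388), and the difference 1.32 ± 0.35 (adjusted p = 0.0117). At day 6 MIGA2-KO was 2.80-fold above WT (adjusted p = 0.000174). Leaving out the 3 libraries that stood apart (WT day 0 replicate 1, WT day 6 replicate 1 and MIGA2-KO day 6 replicate 1) gave a difference over time of 1.96 on the log2 scale, and offsets for GC content and transcript length gave 0.93. Both passed.

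Nr3c2, the mineralocorticoid receptor, moved in the same way at a lower level. It was at 6.74, 9.89 and 10.2 CPM at day 0 and 3.71, 2.53 and 2.82 CPM at day 6 in WT, without overlap, and at 7.14, 6.88 and 9.002 CPM and then 5.39, 7.75 and 7.58 CPM in MIGA2-KO. The fall in WT was 2.96-fold (edgeR adjusted p = 3.45e-05), and the difference over time was 1.41 ± 0.32 on the log2 scale (adjusted p = 0.00488). Nr3c1 made up 89.5% to 96.9% of the pair per kilobase in every library. Esr1, an oestrogen receptor, had 26 counts in all.

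The genes around the glucocorticoid receptor did not follow its RNA. Of 12 tested glucocorticoid targets, 10 rose in each line and 0 fell at the threshold (83.3%, beside 64.8% of all genes in WT and 44.3% in MIGA2-KO), with medians of 2.91 in WT and 1.83 in MIGA2-KO. At day 6, 9 were lower and 2 higher in MIGA2-KO than in WT (91.7% beside 60.7% of all genes), with a median of -1.05 beside -0.01 over all genes. Fkbp5, a chaperone induced by the receptor, was at 1578 to 1627 CPM in WT and 492 to 744 CPM in MIGA2-KO, a log2 difference of -1.30 ± 0.13 (edgeR adjusted p = 1.27e-06). The phosphatase gene Dusp1 was lower by -2.56 ± 0.14 and the metallothionein gene Mt2 by -3.96 ± 0.35. The 2 higher genes were Klf9 and, named after its values were seen, the kinase gene Sgk1 (0.67 ± 0.16). At day 0, before dexamethasone was added, 7 of the 12 were already lower in MIGA2-KO and 0 were higher (58.3% beside 33.9% of all genes), Fkbp5 by -1.12 ± 0.13. MIGA2-GFP at day 6 also had 7 of the 12 lower and 2 higher than the same WT libraries (75% beside 35.3% of all genes). The target median there was -0.75, beside 0.00 over all genes, while Nr3c1 was higher by 0.91 ± 0.25 on the log2 scale. Of 7 tested genes for chaperones of the receptor and activation of its ligand, 3 rose and 0 fell in WT (42.9% beside 64.8% of all genes). In MIGA2-KO 1 rose and 0 fell (14.3% beside 44.3%). At day 6, 4 of the 7 were lower and 2 higher in MIGA2-KO than in WT (85.7% beside 60.7%). Among them Hsd11b1, the enzyme that makes active glucocorticoid inside fat cells, rose by 5.09 ± 0.13 in WT and by 2.74 ± 0.12 in MIGA2-KO. Its cofactor supplier H6pd rose by 1.82 ± 0.13 in WT (0.30 ± 0.12 in MIGA2-KO, adjusted p = 0.0581). At day 6 Hsd11b1 and H6pd were lower in MIGA2-KO by -1.88 ± 0.11 and -0.93 ± 0.12. The adipocyte markers given above differ between the same groups, and their part in these values was not tested.

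**Figure D3:**
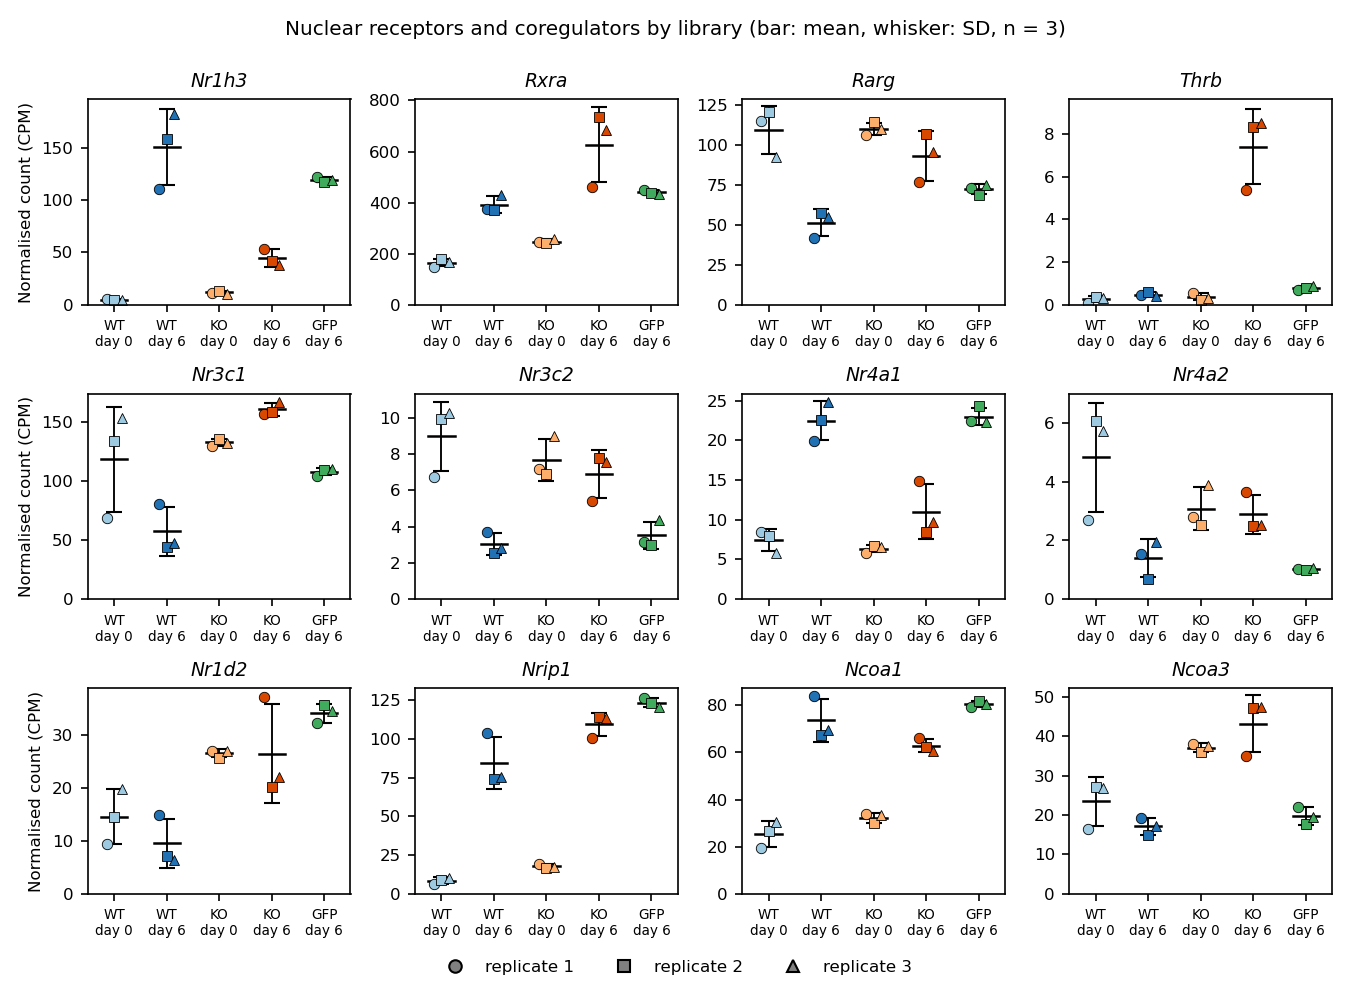
Normalised counts (vertical axis, CPM, starting at 0) of 12 members in the 15 libraries, by group, with a symbol for each replicate number, the mean as a bar and the SD as a whisker (n = 3). Thrb stands apart in MIGA2-KO at day 6 at 5.39 to 8.53 CPM, and Nr3c1, Nr3c2 and Nr4a2 are lower in WT at day 6 than in MIGA2-KO.

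The NR4A receptors are orphan receptors induced rapidly by cAMP and other stimuli, and their RNA levels set much of their activity. Nr4a1 was at 8.44, 7.995 and 5.84 CPM in WT at day 0 and at 20.0, 22.6 and 24.9 CPM at day 6, a 3.02-fold rise without overlap (edgeR adjusted p = 4.03e-06). In MIGA2-KO it went from 5.86, 6.65 and 6.57 CPM to 14.95, 8.40 and 9.67 CPM, a 1.73-fold rise (adjusted p = 0.00584) in which the library labelled MIGA2-KO day 6 replicate 1 was the highest. With that library left out the Nr4a1 rise was 0.51 on the log2 scale in place of 0.79 (adjusted p = 0.0365). MIGA2-KO was 2.04-fold below WT at day 6 (adjusted p = 0.000416). The difference over time of -0.81 ± 0.28 was near the threshold (adjusted p = 0.0446) and did not pass in 14 of 20 alternatives, with adjusted p from 5.87e-05 to 0.113.

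Nr4a2 went the other way. It was at 2.69, 6.06 and 5.72 CPM at day 0 and at 1.54, 0.682 and 1.94 CPM at day 6 in WT, and at 2.81, 2.52 and 3.89 CPM and then 3.65, 2.47 and 2.53 CPM in MIGA2-KO. The fall in WT was 3.48-fold (edgeR adjusted p = 0.000517), and the difference over time 1.70 ± 0.50 on the log2 scale (adjusted p = 0.0219). That difference did not pass when replicate 2 of WT day 0 (1.51, adjusted p = 0.0552), of WT day 6 (1.39, 0.0566) or of MIGA2-KO day 0 (1.58, 0.0539) was left out. The day 6 difference of 1.05 ± 0.39 (adjusted p = 0.0311) did not pass without WT day 6 replicate 2 (0.74, adjusted p = 0.126) or with the library labelled MIGA2-KO day 6 replicate 1 left out (0.85, 0.106). Nr4a1 made up 94.4% ± 2.67 of the NR4A family per kilobase in WT at day 6 and 81.0% ± 1.2 in MIGA2-KO. Nr4a3 had 26 counts in all. Of 16 other immediate early genes, 9 fell and 2 rose in WT (68.8% beside 64.8% of all genes), and 3 fell and 2 rose in MIGA2-KO (31.2% beside 44.3%). Egr1, a transcription factor induced by serum, fell by 2.99 ± 0.35 in WT, and its change over time differed by 2.81 ± 0.46 (edgeR adjusted p = 0.000484). In MIGA2-KO at day 6 Egr1 was at 78.9 CPM in the library labelled replicate 1 and at 25.6 and 25.8 CPM in the others, and the difference over time was 2.06 with that library left out.

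REV-ERBα and REV-ERBβ, encoded by Nr1d1 and Nr1d2, repress clock genes when they bind heme, and RORα, encoded by Rora, activates the same sites. Nr1d2 was at 14.9, 7.21 and 6.41 CPM in WT at day 6, at 37.2, 20.1 and 22.1 CPM in MIGA2-KO and at 32.2, 35.7 and 34.6 CPM in MIGA2-GFP. Both lines lay above every WT day 6 library, by 2.77-fold and 3.58-fold (edgeR adjusted p = 0.00125 and 0.00075). The highest value in MIGA2-KO came from the library labelled replicate 1, and without it the log2 difference was 1.15 in place of 1.47. Nr1d2 was also 1.82-fold higher in MIGA2-KO at day 0 (adjusted p = 0.0391), which did not pass without any 1 of 5 libraries: WT replicates 1 and 2 and each of the 3 MIGA2-KO replicates (log2 differences of 0.63 to 0.89, adjusted p of 0.0762 to 0.116). Nr1d1 rose by 0.60 ± 0.16 on the log2 scale in WT (adjusted p = 0.00388), to 25.5 to 30.2 CPM, and was at 41.8 to 44.5 CPM in MIGA2-GFP, 1.55-fold above WT (adjusted p = 0.00723). Its rise in WT had an adjusted p of 0.0564 with offsets for GC content and transcript length.

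Clock genes moved in both directions. Of 14 tested clock genes, 7 rose and 3 fell in WT (71.4% beside 64.8% of all genes), and 8 rose and 1 fell in MIGA2-KO (64.3% beside 44.3%). Cry2, a repressor of the clock, rose by 1.72 ± 0.11 in WT and 1.56 ± 0.11 in MIGA2-KO. Nfil3, a repressor under REV-ERB control, was at 61.3 to 65.5 CPM in WT and 7.84 to 13.3 CPM in MIGA2-KO at day 6, and the change over time differed by -2.29 ± 0.24 (edgeR adjusted p = 1.17e-05). In MIGA2-GFP 4 clock genes were higher and 2 lower than in WT (42.9% beside 35.3% of all genes). Among the higher ones were Per3 by 1.19 ± 0.23 and Dbp by 1.36 ± 0.28, both output genes that follow the clock's phase. The hour of harvest is not in the labels.

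COUP-TF receptors and the testicular receptors are orphan receptors that compete for half-site repeats and mostly repress. Nr2f2, encoding COUP-TFII, a known brake on fat cell formation, was at 28.4, 27.2 and 24.6 CPM in WT at day 6, at 44.3, 41.1 and 43.0 CPM in MIGA2-KO and at 46.1, 40.9 and 44.4 CPM in MIGA2-GFP. Both were above WT without overlap, by 1.60-fold and 1.64-fold (edgeR adjusted p = 8.96e-05 and 0.000241), and MIGA2-KO was already 1.71-fold above WT at day 0 (adjusted p = 9.5e-05). Nr2f1, COUP-TFI, fell by 0.78 ± 0.17 on the log2 scale in WT (adjusted p = 0.00108).

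Nr2f6 was the member of the group that rose, from 58.8, 37.1 and 27.3 CPM to 50.4, 87.9 and 125 CPM in WT, groups that overlapped. It was at 33.9 to 39.9 CPM in MIGA2-KO at day 6, a log2 difference of -1.26 ± 0.30 (edgeR adjusted p = 0.00211). Its exons overlap those of Ocel1 on the other strand over 54.4% of their length, so its counts are uncertain. Nr2c2, the testicular receptor TR4, was at 29.1, 54.5 and 63.2 CPM at day 0 and at 34.3, 16.7 and 17.1 CPM at day 6 in WT, and at 44.8 to 52.9 CPM in MIGA2-KO at day 6. It differed there by 1.08 ± 0.27 (adjusted p = 0.00366), and its exons overlap those of Mrps25 over 30.7% of their length. With offsets for GC content and length that difference was 0.53. Nr2c1, TR2, was higher by 0.75 ± 0.20 (adjusted p = 0.00413). Nr6a1, a germ cell receptor, lay between 4.57 and 9.13 CPM in every library, and Nr5a2 and Nr0b2 had no count, which allows up to 0.0140 CPM each over the 15 libraries (3 counts, counting error only).

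Among the corepressors, Nrip1, which encodes RIP140, a repressor of oxidative genes in fat, showed the largest rise in WT after Nr1h3 among the members with counts at day 0. It went from 6.32, 8.74 and 10.4 CPM to 104, 74.0 and 75.2 CPM in WT and from 19.4, 16.6 and 16.95 CPM to 101, 114 and 113 CPM in MIGA2-KO. The rises were 9.90-fold and 6.20-fold (edgeR adjusted p = 5.67e-10 and 1.33e-08), and MIGA2-KO was 2.07-fold higher at day 0 (adjusted p = 0.000443) without overlap. The difference over time, -0.68 ± 0.23 (adjusted p = 0.0424), did not pass in 14 of 20 alternatives (adjusted p 4.13e-06 to 0.102). At day 6 the difference from WT was 0.37 ± 0.16 (adjusted p = 0.0526). It took the opposite sign, -0.31, with offsets for GC content and length.

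Ncor1, the core of the main corepressor complex, was at 35.4, 75.1 and 82.3 CPM in WT at day 0 and at 89.1, 49.2 and 58.6 CPM at day 6, with replicate 1 at opposite ends. MIGA2-KO was at 104, 104 and 108 CPM and then at 106, 121 and 120 CPM, above all WT libraries at each day. The day 6 difference of 0.82 ± 0.25 on the log2 scale (edgeR adjusted p = 0.0114) did not pass without WT day 6 replicate 2 (0.66, adjusted p = 0.0539) or with the GC and length offsets (0.31, 0.0502). The day 0 difference of 0.71 ± 0.25 (adjusted p = 0.0398) did not pass without WT replicate 1 (0.42, 0.087) or without any 1 of the MIGA2-KO replicates (0.70 to 0.73, 0.0776 to 0.0902).

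The p160 coactivators differed from each other. Ncoa1 rose in WT from 19.4, 26.4 and 30.3 CPM to 84.0, 67.6 and 69.4 CPM and in MIGA2-KO from 33.7, 29.9 and 33.3 CPM to 66.0, 62.2 and 60.5 CPM, 2.90-fold and 1.95-fold (edgeR adjusted p = 2.19e-07 and 5.7e-05). Ncoa3 was at 19.3, 14.8 and 17.3 CPM in WT and 34.95, 47.2 and 47.6 CPM in MIGA2-KO at day 6, 2.52-fold higher without overlap (adjusted p = 3.83e-05), and 1.58-fold higher at day 0 (adjusted p = 0.0125). Ncoa2, a coactivator of the glucocorticoid receptor and of PPARγ, was at 33.0, 14.04 and 18.9 CPM in WT and at 51.7, 61.8 and 64.1 CPM in MIGA2-KO at day 6 (1.43 ± 0.33, adjusted p = 0.00177).

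Per kilobase, Ncoa1 thus gave 37.6% ± 4.40 of the p160 RNA in WT at day 0 and 70.9% ± 2.86 at day 6, against 30.8% ± 1.08 and 44.4% ± 4.78 in MIGA2-KO. MIGA2-GFP was at 66.4% ± 1.26. The difference over time in Ncoa1 itself was -0.57 ± 0.20 on the log2 scale (edgeR adjusted p = 0.0422) and did not pass in 11 of 20 alternatives (adjusted p 2.6e-05 to 0.092). Med1, the Mediator subunit that receptors contact, lay between 20.6 and 37.7 CPM in every library and passed no comparison. Of 31 other Mediator genes 2 rose and 5 fell in WT, 22.6% beside 64.8% of all genes.

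Of 31 other tested coregulators, 15 were higher and 5 lower in MIGA2-KO than in WT at day 6, 64.5% beside 60.7% of all genes. Ppargc1a, which encodes the oxidative coactivator PGC-1α that Nrip1 opposes, was at 3.16, 6.17 and 8.74 CPM in WT at day 0 and 2.17, 1.07 and 1.17 CPM at day 6, and at 4.57, 3.90 and 4.70 CPM and then 9.65, 11.0 and 9.93 CPM in MIGA2-KO. It fell in WT by 2.02 ± 0.35 on the log2 scale and rose by 1.22 ± 0.30 in MIGA2-KO, a difference of 3.24 ± 0.47 (edgeR adjusted p = 0.000166). Hdac3, the deacetylase of the NCOR1 complex, was lower by -1.04 ± 0.13 in MIGA2-KO at day 6 (adjusted p = 1.31e-05).

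Before differentiation, 11 members passed between the lines, 10 higher and 1 lower (Ppard) in MIGA2-KO, beside 33.9% of all genes (16.1% higher and 17.7% lower). Nr1h3, Rxra, Vdr, Nr1d2, Nr2f2, Nrip1, Ncor1 and Ncoa3 were at least 1.5-fold higher, 8 of 30, beside 9.41% of all genes. The member median was 0.26 and that of all genes -0.03. The MIGA2-KO libraries lay close together at this day: the median ratio of the highest to the lowest library was 1.11 over the members, against 1.56 in WT. Leaving out any 1 of the 3 MIGA2-KO libraries lowered the count of 11 to 6, with 6 higher and 0 lower. The shares of all genes called in these refits are not given here. A general loss of calls therefore cannot be told apart from a result about the members.

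At day 6, 21 members differed between MIGA2-KO and WT, 15 higher and 6 lower, beside 60.7% of all genes (29.2% higher and 31.5% lower). With the library labelled MIGA2-KO day 6 replicate 1 left out the count was also 21. The member median was 0.44 and that of all genes -0.01. By role, 4 of 5 COUP-TF and testicular receptors, both tested steroid receptors and 2 of 4 coactivators were higher, and of 6 lipid-sensing receptors and RXRs 3 were lower (Nr1h3, Ppard and Rxrb, the last not stable as given above) and 1 was higher (Rxra). Pparg and Esrra, receptors outside the member list, were lower too, by -0.90 ± 0.08 and -1.19 ± 0.21 (edgeR adjusted p = 6.86e-07 and 0.000302). Of the 7 adipocyte markers all 7 were lower, and of 6 preadipocyte markers 2 were higher and 1 lower. Their part in these results was not tested. Members also differ in transcript length and GC content. Offsets for these made the day 6 differences of Nr2c2, Rxrb, Ncor1 and Thra smaller, as given above. The part of length and GC content in the split by role was not tested.

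**Figure D4:**
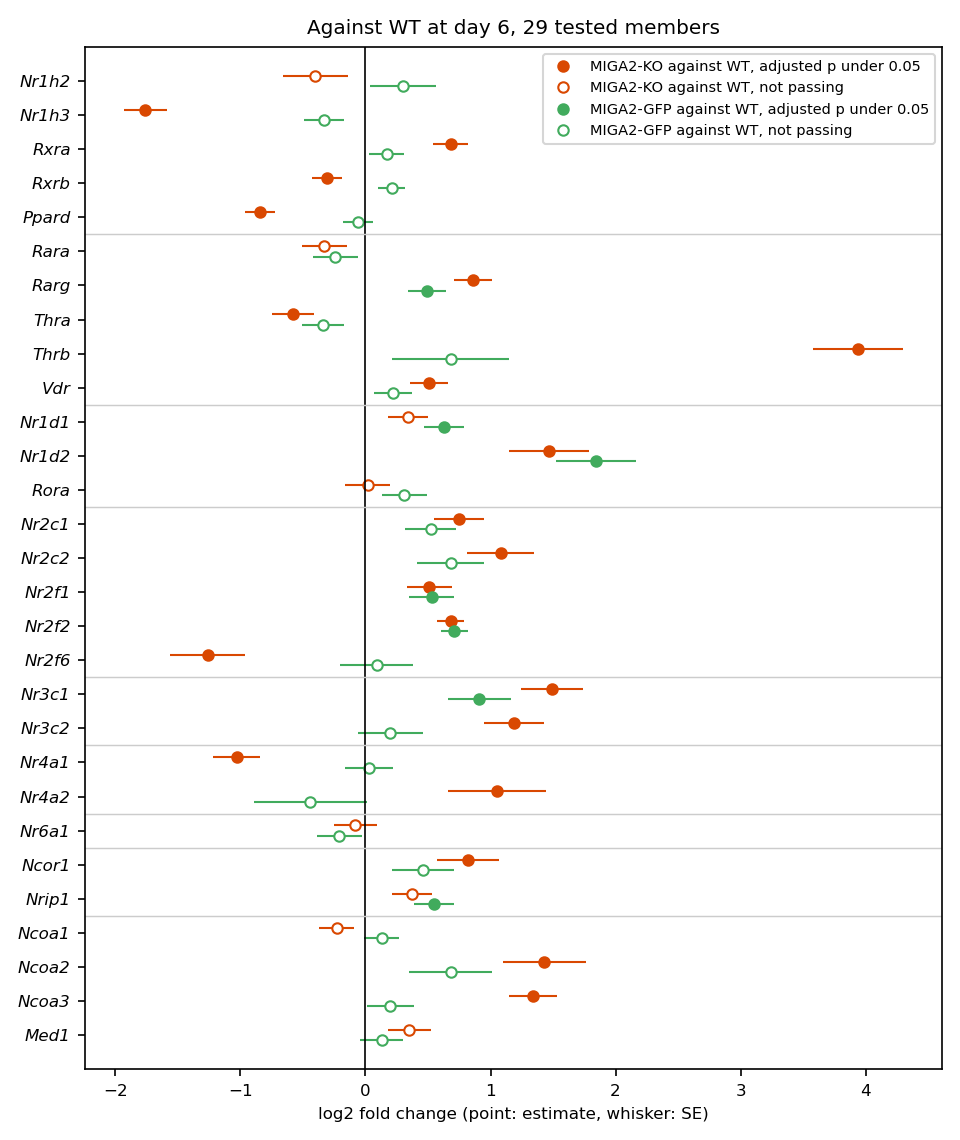
Log2 fold change against WT at day 6 (horizontal axis) of 29 tested members (rows, separated by role) for MIGA2-KO (orange) and MIGA2-GFP (green), with SE as whiskers and filled points for an adjusted p under 0.05. Both comparisons use the same 3 WT libraries, and Thrb at 3.94 and Nr1h3 at -1.76 mark the ends in MIGA2-KO.

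MIGA2-GFP differed from WT in 7 members, all higher, beside 35.3% of all genes (16.5% higher). The member median was 0.22, against 0.00 over all genes. The changes of at least 1.5-fold, 4 beside 22.7% of all genes, were Nr1d2, Nr1d1 and Nr2f2, given above, and Nr3c1. Nr3c1 was at 105, 109 and 110 CPM, 1.88-fold above WT (edgeR adjusted p = 0.0122), which did not pass without WT day 6 replicate 2 (0.74 on the log2 scale, adjusted p = 0.0658) or replicate 3 (0.78, 0.0549). Nrip1 was higher by 0.55 ± 0.16 (adjusted p = 0.0155), which did not pass without WT replicate 2 or 3 or MIGA2-GFP replicate 1 (0.45 to 0.52, adjusted p 0.0519 to 0.0807). Nr1h3 was at 122, 117 and 119 CPM, inside the WT range, and its difference of -0.33 ± 0.16 had an adjusted p of 0.127. With WT day 6 replicate 1 left out, it passed as lower (-0.53, adjusted p = 0.00792), as did Thra (-0.50, 0.0233). The count of 7 was then 11, 9 higher and 2 lower, and it was 4 without WT day 6 replicate 2. For these counts, too, the shares of all genes called are not given here. The comparisons of MIGA2-GFP and MIGA2-KO with WT share the WT libraries, so WT day 6 replicate 1 enters both.

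The order of levels per kilobase also changed. In WT at day 0 it ran from Thra (33.4 ± 4.75 CPM per kilobase) over Rxra (30.1 ± 2.75) and Rarg (25.7 ± 3.53) to Nr3c1 (15.4 ± 5.79), and the SD ranges of neighbours in this order overlapped except for Rarg and Nr3c1. In MIGA2-KO at day 6 Rxra led with 115 ± 26.7, followed by Thra with 36.5 ± 7.12, Rarg with 21.9 ± 3.63 and Nr3c1 with 21.0 ± 0.726. In WT at day 6 Nr1h3 had moved to 59.8 CPM per kilobase, behind Rxra at 71.7 and ahead of Thra at 54.6.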

How the data were processed

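The submitters' processing notes name bcl2fastq 2.19, Trimmomatic, STAR 2.5.4b, featureCounts and edgeR as tools and GRCm38.p5 as the genome build. The extraction label names a stranded TruSeq kit. No source used here states the annotation release or the strand setting. The deposited values are raw counts per gene, 1 column per library, as the authors made them.

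Of 25700 identifiers 25664 were given a symbol from GENCODE vM21. Counts were fitted in R 4.3.3 with edgeR 4.0.16 (filterByExpr with a minimum count of 10 and a minimum total of 15, TMM scaling, quasi-likelihood F test, 1 term per group over all 15 libraries), which left 12279 genes. P-values are two-sided and adjusted (Benjamini-Hochberg) across the 12279 genes, with a threshold of 0.05. The common biological coefficient of variation was 15.96%. The SE of a log2 fold change is its size divided by the square root of F. CPM values use TMM-scaled totals, and levels between genes are compared per kilobase of exon. The fit was tested on simulated data. Alternatives were DESeq2 1.42.0, RLE and upper-quartile scaling, no filter, a replicate block, GC and length offsets, only the groups compared, and libraries left out.

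The members, the gene lists and the tests were chosen with earlier results of these data known. Full values were given for tested members that passed at 1.5-fold or more in a comparison, and for at most 4 genes of each list per comparison, those with the smallest adjusted p. Pparg and Esrra were named as the receptors outside the member list and Miga2 as a check of the labels. For Scd1, Thrsp, Lpcat3, Egr1 and Spp1 a fit with the library labelled MIGA2-KO day 6 replicate 1 left out was added after seeing the data. The Lpcat3 value from that fit is not reported here. Promoter windows come from RefSeq (GRCm38.p6). Replicate numbers were not used as pairs, since deviations of same-numbered libraries correlated at -0.723 to 0.125. Some genes that the rule would name are not reported here.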

Additional observations from a re-analysis of the deposited data

Results flagged for a closer look

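The change from day 0 to day 6 differed between MIGA2-KO and WT for 9 of the 30 tested members (30%), beside 27.2% of all genes tested. The test was that of the difference itself (edgeR quasi-likelihood, adjusted p under 0.05). The log2 differences, MIGA2-KO minus WT, were -3.04 for Nr1h3, 3.53 for Thrb, 1.70 for Nr4a2, 1.41 for Nr3c2, 1.32 for Nr3c1, 0.85 for Rarg, -0.81 for Nr4a1, -0.68 for Nrip1 and -0.57 for Ncoa1. Nr1h3, Thrb, Nr3c2, Nr3c1 and Rarg passed in each of the 20 alternatives run, and the other 4 did not. The 2 lines already differed at day 0 in Nr1h3 (1.28 on the log2 scale) and Nrip1 (1.05), so a smaller rise in MIGA2-KO starts there from a higher level. No formal outlier test was run, since groups of 3 libraries are too small for it.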

How the results depend on the processing

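Of the members called, 16 of 22 (WT over time), 8 of 11 (MIGA2-KO over time), 6 of 11 (between the lines at day 0), 16 of 21 (at day 6), 3 of 7 (MIGA2-GFP) and 5 of 9 (difference over time) passed in every alternative run. Leaving out the 3 libraries that stood apart raised the counts to 19 for MIGA2-KO over time, 18 at day 0, 18 for MIGA2-GFP and 22 for the difference over time. The shares of all genes called in this and the other refits are not given here. The counts therefore cannot be told apart from a general shift in calls over all genes. Offsets for GC content and length gave 17, 12 and 15 for MIGA2-KO over time, MIGA2-GFP and the difference over time. Upper-quartile scaling, which shifts the median of all genes by -0.14 in WT over time and by 0.10 in the difference, gave 7 at day 0. Leaving out 1 library gave 18 to 26 calls for WT over time, 8 to 10 for MIGA2-KO over time, 6 to 13 at day 0, 18 to 24 at day 6, 4 to 11 for MIGA2-GFP and 5 to 15 for the difference over time, with 5 without MIGA2-KO day 0 replicate 2 and 15 without WT day 0 replicate 1. Values that took the opposite sign and passed were Ncor1 in WT over time without the 3 libraries (-0.53) and, with the offsets, Med1 at day 0 (-0.25) and Rora (-0.84), Nrip1 (-0.31) and Med1 (-0.21) at day 6, none of which was called in the reported fit; the cause was not tested. With the replicate number as a block the counts were 21, 10, 9, 20, 7 and 6, and the check of pairing (2 of 30 same-number correlations over 0.1) did not pair the samples. Rxrg could not be fitted for MIGA2-KO over time with only the groups compared, since it did not pass the filter there. Depth limits Thrb, Nr4a2, Nr3c2 and Rxrg, which are at or below about 10 CPM.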
